A study of Homo sapiens with 4 samples.

Results

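The 35 genes described here encode proteins of the centromere and kinetochore, chosen by name as 4 functional classes out of the 27940 gene symbols of the deposited tables. They were measured by RNA-seq in U87, an established human glioma cell line, in 2 shPTPRN3 libraries and 2 shNC libraries. The shPTPRN3 cells were infected with a lentivirus that carried a hairpin RNA directed at PTPRN, which encodes a dense-core vesicle protein of the receptor tyrosine phosphatase family, and the shNC cells with a lentivirus made from the empty FUGW-H1 vector. Elsewhere the submitters call the control cells H1-RFP (WT), so which vector they carried is uncertain, and 1 hairpin was used. Both lines grew in the same serum-containing medium, and the libraries of a group are described as biological replicates, without saying whether each had its own culture. The p-values thus reflect only how these libraries vary, which may be technical. All 35 genes were found in the tables. They fall into 3 CENP-A deposition factors, 14 genes of the constitutive centromere, 16 of the outer kinetochore and 2 shugoshins.

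The centromere is marked by nucleosomes that hold CENP-A, a histone H3 variant, which a dedicated chaperone loads after mitosis. On these nucleosomes sits the constitutive centromere-associated network, a set of CENP proteins that stays there through the cell cycle. In mitosis the network recruits the outer kinetochore, in which the KNL1, MIS12 and NDC80 complexes bind spindle microtubules and the SKA and RZZ complexes strengthen and monitor that attachment. Many of these genes are transcribed mainly in dividing cells, late in the cell cycle.

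Values are FPKM, fragments per kilobase of transcript and per M mapped fragments, scaled by a factor per library, and fold changes are on the log2(FPKM + 1) scale. Depth estimated from the deposited confidence intervals was 11.8 to 28.4 M fragments per library. PTPRN had 4.96 and 3.62 FPKM in the shPTPRN3 libraries and 27.6 and 19.8 FPKM in the shNC libraries, or 18.1% of the control level, with a log2 fold change of -2.22 and limma's adjusted p of 0.0592. The 21-base target of the hairpin was found in 0 of 282 annotated transcripts of the 35 genes. Of 8 markers of U87 or glioma cells, VIM and CD44 were above 80 FPKM in every library, GFAP was listed at 0 in each, and SOX2, S100B and OLIG2 were at or below 0.872 FPKM. NES had 1.30 and 0.972 FPKM in shPTPRN3 and 2.35 and 4.01 FPKM in shNC, and EGFR had 10.04 and 15.5 FPKM in shPTPRN3 and 4.22 and 8.58 FPKM in shNC, with adjusted p of 0.289 and 0.390 (limma). The CDKN2A, CDKN2B and MTAP genes, which this line has lost, were at or below 0.0594 FPKM. Of 10 markers of other cell types, 9 were below 1 FPKM in every library and CD68, also a lysosomal gene, was at 434 and 326 FPKM in shPTPRN3 and 225 and 253 FPKM in shNC. 

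Almost the whole group was lower in the shPTPRN3 libraries. Summed over the 34 members that entered the test, the levels were 111 and 81.3 FPKM in shPTPRN3 and 371 and 293 FPKM in shNC, or 28.9% of the control level. The median log2 fold change was -1.62 over these 34 members, against -0.01 over all 11390 genes tested. CENPO, CENPP and OIP5 were listed at 0 in both shPTPRN3 libraries, so their fitted fold changes depend on the added 1. Of the other 31, whose median was also -1.62, 30 had a negative fold change, 24 of them below -1 and 9 below -2. For 29 of 34 members the higher shPTPRN3 value was still under the lower shNC value, an order seen for 23.1% of all genes tested. The deposited intervals of both shPTPRN3 libraries lay below those of both shNC libraries for 26 of 34, against 11.7% of all genes. In bulk RNA, fewer dividing cells and less of these mRNAs per cell cannot be told apart.

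**Figure D1:**
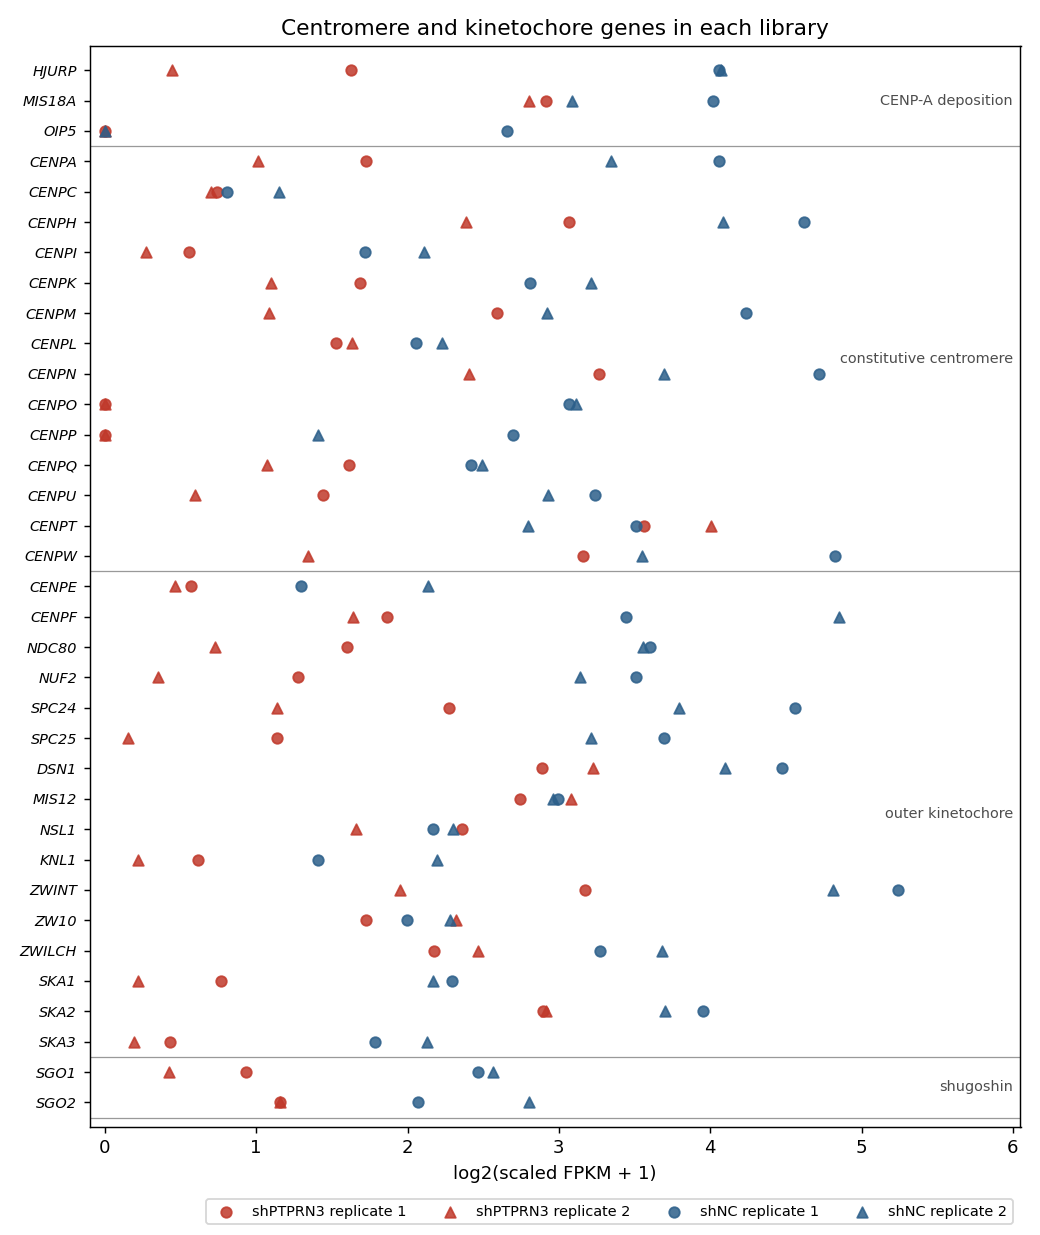
Each row is 1 gene and each point 1 library, on the log2(scaled FPKM + 1) axis, with shPTPRN3 in red and shNC in blue, replicate 1 as circles and replicate 2 as triangles. Red points lie left of blue points in most rows. Red and blue points of MIS12, NSL1 and ZW10 overlap, and the red points of CENPT lie to the right. The red points of OIP5 share the value 0 with shNC replicate 2.

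Gene by gene, the test with 2 libraries a group called few of them. At an adjusted p under 0.05 over all genes, limma called 1 of 34 members lower, CENPO, against 0.342% of all genes tested, and 0 of 34 higher, against 0.079%. The call of CENPO was lost with no filter on low values (adjusted p = 0.142), where 0 members were called. At a mean of at least 5 FPKM, where CENPO was not tested, 0 of 17 members were called lower, against 0.0688% of 7268 genes, and 14 of 17 were lower at an unadjusted p under 0.05, against 6.81%. That mean is taken over all 4 libraries. Some of the 14, such as HJURP (means of 1.22 FPKM in shPTPRN3 and 15.7 FPKM in shNC), reached it only through shNC. Their lower level in shPTPRN3 was thus in part a condition of entry. With 1 library left out, which leaves 1 library in a group, the median log2 fold change over the members tested stayed negative. It was -1.85 without shPTPRN3 replicate 1, -1.33 without shPTPRN3 replicate 2, -1.65 without shNC replicate 1 and -1.81 without shNC replicate 2. With all 4 libraries and the minimum mean of 1 FPKM, a further 13 members had an adjusted p between 0.05 and 0.1. At an unadjusted p under 0.05, 27 of 34 members were lower, against 7.77% of all genes, and 0 of 34 higher, against 5.67%. Genes listed at exactly 0 in a library, which can be failed estimates, had been part of that fit. Without them 14 of 31 members were called lower, against 1.57% of 11125 genes (limma, adjusted p under 0.05), and 0 higher, against 0.378%, with 25 of the 31 lower at an unadjusted p under 0.05, against 8.23%. With robust moderation of the variances 11 of 34 were called lower, against 1.12%.

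Members that were tested had a mean of at least 1 FPKM over the 4 libraries, and 11 of the 34 reached it only through shNC, so their lower level in shPTPRN3 was in part a condition of entry. These were CENPE, CENPI, CENPO, CENPP, OIP5, NUF2, SPC25, KNL1, SKA1, SKA3 and SGO1, and the counts of members above include them. The 23 members with a mean of at least 1 FPKM in each group had a median log2 fold change of -1.37, and 22 were negative. Of these 23, 17 were lower at an unadjusted p under 0.05, against 7.77% of all genes tested. Both shPTPRN3 values lay under both shNC values for 19, against 23.1%. In the fit without genes listed at 0, 8 were called lower, against 1.57%. These shares cover all genes of each fit, and the share among genes at that mean in each group was not computed. CENPC, the protein that ties CENP-A nucleosomes to the outer kinetochore, was the 1 member below a mean of 1 FPKM over the 4 libraries. It had 0.670 and 0.627 FPKM in shPTPRN3 and 0.750 and 1.22 FPKM in shNC. Fitted with no filter it had a log2 fold change of -0.26 with an SE of 0.20 (adjusted p = 0.688 by limma), and 25 of all 35 members were then lower at an unadjusted p under 0.05, against 5.37% of 19733 genes, with 0 members and 0 genes called. The library that was lowest for the group was shPTPRN3 replicate 2. Of the 32 members never listed at 0, 24 had a lower level there than in shPTPRN3 replicate 1, with a median log2 ratio of replicate 1 over replicate 2 of 0.98, against 0.02 over 10764 genes.

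The loading of CENP-A was represented by its chaperone HJURP and by MIS18A and OIP5, subunits of the MIS18 complex that licenses the centromere for loading. HJURP had 2.09 and 0.362 FPKM in shPTPRN3 and 15.7 and 15.8 FPKM in shNC. The control libraries were nearly equal, and the shPTPRN3 mean was 7.77% of theirs. Its log2 fold change of -3.03 (SE 0.43) was the most negative among members never listed at 0 and just missed the threshold (adjusted p = 0.0506 by limma). It passed in the fit without genes listed at 0. MIS18A had 6.54 and 5.97 FPKM in shPTPRN3 and 15.2 and 7.49 FPKM in shNC, with a log2 fold change of -0.70 (adjusted p = 0.475 by limma), so that the groups did not overlap but the control libraries differed more from each other than shPTPRN3 differed from the lower of them. OIP5 was listed at 0 in both shPTPRN3 libraries and in shNC replicate 2, and at 5.32 FPKM in shNC replicate 1. Its locus overlaps that of OIP5-AS1 on the opposite strand, which had 4.86 and 3.78 FPKM in shPTPRN3 and 4.21 and 7.58 FPKM in shNC as deposited, so OIP5 is given no fold change.

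CENPA itself, the histone variant that these factors load, had 2.31 and 1.01 FPKM in shPTPRN3 and 15.6 and 9.18 FPKM in shNC. All 4 values separate by group, and the level in shPTPRN3 was 14.8% of control between the replicates 1 and 11.04% between the replicates 2. The log2 fold change was -2.33 (SE 0.40, adjusted p = 0.0693 by limma). CENPA passed in the fit without genes listed at 0. Its promoter is shown because it holds all 3 kinds of motif searched here, which are known from other cell-cycle promoters. These are the cell cycle homology region or CHR (TTTGAA or TTCGAA), the CCAAT box (CCAAT) and the E2F site (TTCCCGC or TTGGCGC), on either strand, with capitals marking each match. The window runs from 250 bases before to 50 bases after the start (RefSeq, GRCh38.p14, chr2:26785806-26786105, plus strand).
CENPA: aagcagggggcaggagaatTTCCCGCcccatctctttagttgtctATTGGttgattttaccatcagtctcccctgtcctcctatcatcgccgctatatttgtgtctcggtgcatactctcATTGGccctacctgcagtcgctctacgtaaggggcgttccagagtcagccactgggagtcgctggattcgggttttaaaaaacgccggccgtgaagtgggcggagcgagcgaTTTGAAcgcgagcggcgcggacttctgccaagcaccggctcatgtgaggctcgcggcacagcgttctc
The CHR lies 18 bases before the start.

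Most subunits of the constitutive network had lower values in shPTPRN3. Among the 11 tested members of this class that were never listed at 0, CENPA included, the median log2 fold change was -1.62, and 10 were negative. The CENP-H, CENP-I, CENP-K and CENP-M subcomplex, a core of the network, had log2 fold changes from -1.74 to -1.50. CENPH, the most abundant of its subunits, had 7.40 and 4.22 FPKM in shPTPRN3 and 23.6 and 15.95 FPKM in shNC. CENPI, the least abundant, had 0.471 and 0.207 FPKM in shPTPRN3 and 2.29 and 3.32 FPKM in shNC. CENPK had 2.21 and 1.14 FPKM in shPTPRN3 and 6.01 and 8.25 FPKM in shNC. None of the values of these 3 genes overlapped between groups, and CENPI and CENPK, but not CENPH, were called lower in the fit without genes listed at 0. CENPI had reached the minimum mean only through shNC. CENPM had 5.02 and 1.12 FPKM in shPTPRN3 and 17.8 and 6.57 FPKM in shNC. Here each group spread widely, with an SE of 0.61 on a log2 fold change of -1.74 (adjusted p = 0.291 by limma).

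CENPN, which reads the CENP-A nucleosome directly, and its partner CENPL also had lower values in shPTPRN3. CENPN had 8.62 and 4.31 FPKM in shPTPRN3 and 25.4 and 12.0 FPKM in shNC, or 34.6% of control, with a log2 fold change of -1.37 (adjusted p = 0.273 by limma). CENPL had 1.89 and 2.10 FPKM in shPTPRN3 and 3.17 and 3.68 FPKM in shNC, or 58.3% of control, with a log2 fold change of -0.56 (adjusted p = 0.452 by limma). Neither passed the test, and the groups overlapped for neither.

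In the CENP-O, CENP-P, CENP-Q and CENP-U group, which takes part in recruiting the kinase PLK1, CENPU and CENPQ gave values in every library. CENPU had 1.72 and 0.513 FPKM in shPTPRN3 and 8.44 and 6.60 FPKM in shNC, with a log2 fold change of -2.06 (SE 0.38, adjusted p = 0.0778 by limma). CENPQ had 2.07 and 1.11 FPKM in shPTPRN3 and 4.34 and 4.63 FPKM in shNC, with a log2 fold change of -1.11 (adjusted p = 0.206 by limma). Neither pair of groups overlapped, and the level relative to control was 14.9% for CENPU and 35.4% for CENPQ. The end of CENPU overlaps PRIMPOL on the opposite strand, which was listed at 0 in both shNC libraries and at 2.39 and 1.67 FPKM in shPTPRN3 as deposited.

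CENPO and CENPP were listed at 0 in both shPTPRN3 libraries. In shNC, CENPO had 7.38 and 7.63 FPKM and CENPP had 5.50 and 1.65 FPKM. CENPO (hg38, chromosome 2, 24793115 to 24822376, plus strand) shares bases with PTRHD1 and ADCY3 on the other strand. PTRHD1 had 98.8 and 81.1 FPKM in shPTPRN3 and 82.3 and 38.5 FPKM in shNC as deposited, and how reads were divided between the overlapping genes was not tested. CENPP spans 8 other genes of the tables, among them NOL8 at its start and IPPK at its end. The call of CENPO (adjusted p = 0.0103 by limma) therefore rests on listed zeros, and no fold change is given for either gene.

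CENPT and CENPW, histone-fold proteins that bind DNA together and of which CENP-T reaches out to the NDC80 complex, had fold changes of opposite sign that did not pass the test. CENPW had 7.94 and 1.54 FPKM in shPTPRN3 and 27.3 and 10.7 FPKM in shNC, with a log2 fold change of -1.94 and an SE of 0.67 (adjusted p = 0.278 by limma). CENPT had 10.8 and 15.1 FPKM in shPTPRN3 and 10.4 and 5.96 FPKM in shNC, with a log2 fold change of 0.63 and an SE of 0.37 (adjusted p = 0.498 by limma). CENPT was thus the 1 member with a positive fold change, and its level was 104% of control between the replicates 1 and 253% between the replicates 2. Its locus contains THAP11 and overlaps NUTF2, both on the opposite strand. The windows of CENPE, CENPI and DSN1, at 17.8%, 12.1% and 39.4% of control, held none of the 3 motifs, and neither did those of NSL1 and CENPP. The promoter of CENPT is shown because, unlike that of CENPA, it also held none of them (chr16:67847644-67847943, minus strand).
CENPT: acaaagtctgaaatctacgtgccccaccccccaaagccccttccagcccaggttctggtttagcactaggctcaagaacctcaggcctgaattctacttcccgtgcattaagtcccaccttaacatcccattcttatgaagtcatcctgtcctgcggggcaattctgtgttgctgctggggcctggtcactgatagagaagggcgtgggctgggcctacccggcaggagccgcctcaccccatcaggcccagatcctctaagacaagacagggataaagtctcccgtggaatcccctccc

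**Figure D2:**
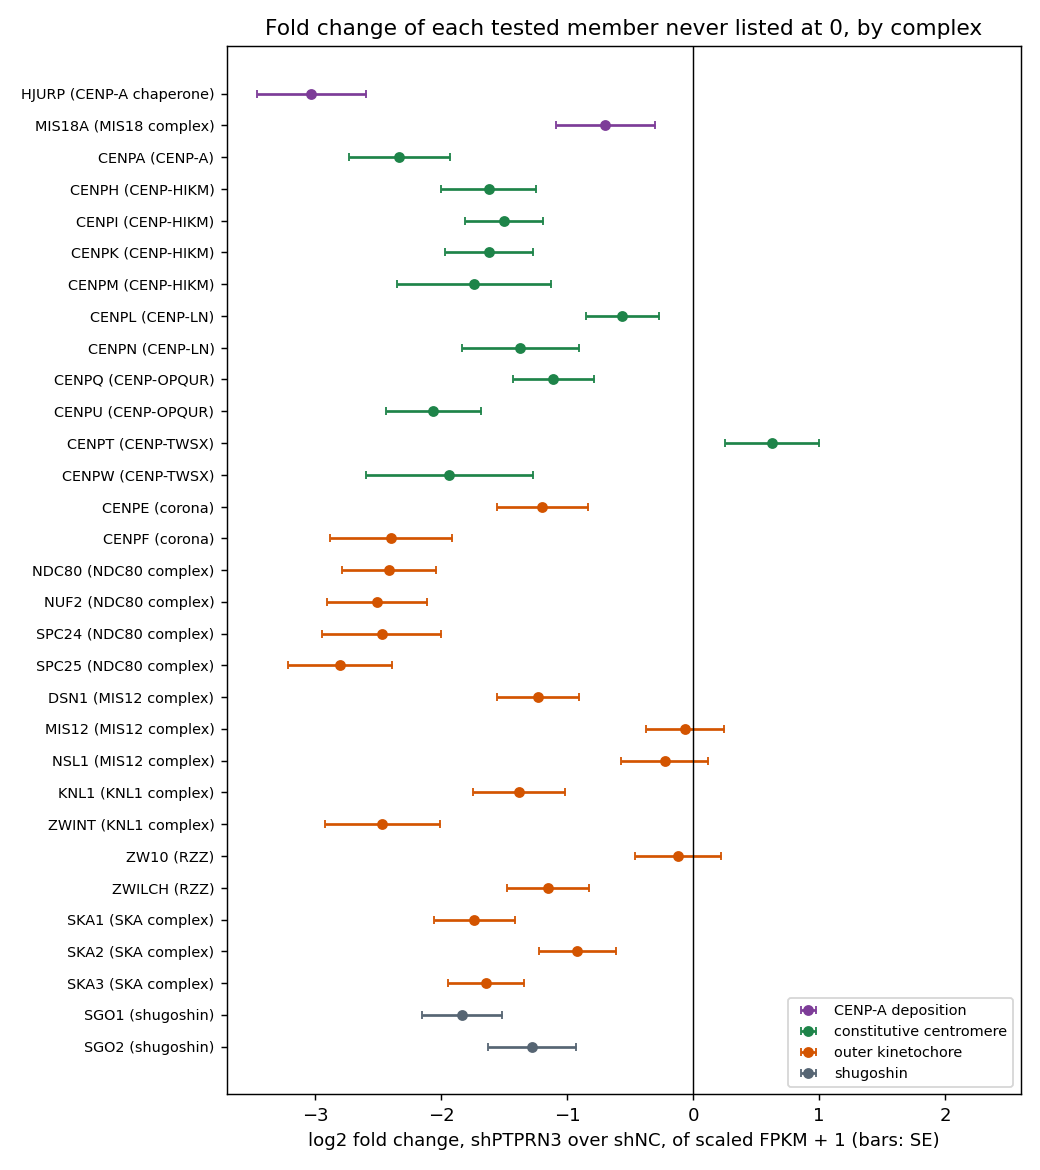
Each point is the log2 fold change of 1 tested gene never listed at 0, shPTPRN3 over shNC, with its SE from limma, ordered by complex and coloured by class. The 4 NDC80 complex genes sit between -2.81 and -2.41, while MIS12, NSL1 and ZW10 sit within 0.23 of 0 and CENPT is at 0.63.

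In the outer kinetochore the NDC80 complex, the main coupler of kinetochore and microtubule, had low values for all of its subunits in shPTPRN3. NDC80 had 2.03 and 0.655 FPKM in shPTPRN3 and 11.1 and 10.8 FPKM in shNC. NUF2 had 1.43 and 0.273 FPKM in shPTPRN3 and 10.4 and 7.83 FPKM in shNC. SPC24 had 3.84 and 1.203 FPKM in shPTPRN3 and 22.6 and 12.9 FPKM in shNC. For each of these the higher shPTPRN3 value was below the lower shNC value. SPC25 had 1.204 and 0.111 FPKM in shPTPRN3 and 11.9 and 8.26 FPKM in shNC, summed over a chromosome row and an alternate-sequence row that the tables list separately. The log2 fold changes were -2.41 for NDC80, -2.51 for NUF2, -2.47 for SPC24 and -2.81 for SPC25, with adjusted p from 0.0550 to 0.0821 (limma). All 4 were called lower in the fit without genes listed at 0, where NUF2 and SPC25 had reached the minimum mean only through shNC. Without the alternate sequences SPC25 had a log2 fold change of -2.15 (adjusted p = 0.0631 by limma).

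The 4 subunits stand at equal numbers in the complex, and their mRNA levels per length stayed within 2.18-fold of each other in shNC replicate 1 and 1.65-fold in shNC replicate 2. In shPTPRN3 the spread was 3.19-fold in replicate 1 and 10.9-fold in replicate 2, where SPC25 was lowest. With the chromosome row of SPC25 alone the spread was 6.7-fold and 14.5-fold in shPTPRN3 and 3.72-fold and 3.44-fold in shNC, so how even the subunits are depends on that sum. At such levels few fragments stood behind a value. The interval widths correspond to about 24.3 fragments for NDC80, 17.4 for SPC24 and 4.76 for NUF2 in shPTPRN3 replicate 2, and the lower bound for SPC25 was 0.

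The promoters of these genes are given because the fold changes of the genes were alike. Windows and capitals are as for CENPA, at chr18:2571307-2571606 (plus strand) for NDC80, chr1:163321704-163322003 (plus) for NUF2, chr19:11155733-11156032 (minus) for SPC24 and chr2:168890381-168890680 (minus) for SPC25.
NDC80: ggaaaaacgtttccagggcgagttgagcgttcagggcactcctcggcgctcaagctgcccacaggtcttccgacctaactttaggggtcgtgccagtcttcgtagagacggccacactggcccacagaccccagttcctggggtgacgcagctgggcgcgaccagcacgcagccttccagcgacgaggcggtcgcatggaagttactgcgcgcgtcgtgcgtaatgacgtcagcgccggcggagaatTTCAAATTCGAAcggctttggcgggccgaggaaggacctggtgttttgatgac
NUF2: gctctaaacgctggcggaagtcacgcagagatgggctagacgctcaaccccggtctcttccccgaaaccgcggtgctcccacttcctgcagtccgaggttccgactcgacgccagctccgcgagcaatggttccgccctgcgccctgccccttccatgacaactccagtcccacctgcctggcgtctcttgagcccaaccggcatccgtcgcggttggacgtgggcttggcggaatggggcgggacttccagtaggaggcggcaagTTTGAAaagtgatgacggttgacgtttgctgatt
SPC24: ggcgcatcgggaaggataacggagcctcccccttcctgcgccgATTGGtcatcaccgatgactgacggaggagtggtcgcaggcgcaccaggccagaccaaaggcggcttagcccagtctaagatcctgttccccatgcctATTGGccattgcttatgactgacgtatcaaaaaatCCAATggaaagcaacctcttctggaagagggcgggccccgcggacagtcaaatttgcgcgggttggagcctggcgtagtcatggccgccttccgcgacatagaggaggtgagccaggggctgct
SPC25: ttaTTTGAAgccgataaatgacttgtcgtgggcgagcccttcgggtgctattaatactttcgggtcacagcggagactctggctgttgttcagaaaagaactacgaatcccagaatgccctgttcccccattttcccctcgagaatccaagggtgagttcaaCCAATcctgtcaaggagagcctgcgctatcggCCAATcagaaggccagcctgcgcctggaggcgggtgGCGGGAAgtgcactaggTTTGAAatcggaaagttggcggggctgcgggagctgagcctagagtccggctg
In NDC80 a pair of CHR matches lie next to each other across the start, in NUF2 a CHR begins 16 bases after it, and in SPC25 one begins 3 bases before it and another 247 bases before it. SPC24 held 3 CCAAT boxes and no CHR by these letters.

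The MIS12 complex, which links the network to NDC80 and KNL1, showed a different pattern. MIS12 had 5.68 and 7.47 FPKM in shPTPRN3 and 6.98 and 6.78 FPKM in shNC. NSL1 had 4.12 and 2.16 FPKM in shPTPRN3 and 3.49 and 3.94 FPKM in shNC. The groups overlapped for both genes, with log2 fold changes of -0.07 (SE 0.31) and -0.23 (SE 0.35) and adjusted p of 0.958 and 0.833 (limma), and the sign of each turned in at least 1 alternative fit. DSN1, the subunit whose phosphorylation by Aurora B favours binding of the complex to CENP-C, had 6.39 and 8.34 FPKM in shPTPRN3 and 21.2 and 16.2 FPKM in shNC. That is 39.4% of control, with no overlap between groups and a log2 fold change of -1.23 (adjusted p = 0.177 by limma). PMF1, the remaining subunit and no member, had a log2 fold change of -0.38 (adjusted p = 0.761 by limma), and its groups overlapped. The fold change of each NDC80 complex gene was thus more negative than that of each MIS12 complex member, by at least 1.18 on the log2 scale. This difference between complexes was not tested.

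The promoters of MIS12 (chr17:5486124-5486423, plus) and NSL1 (chr1:212791728-212792027, minus) are shown as those of outer kinetochore genes whose groups overlapped.
MIS12: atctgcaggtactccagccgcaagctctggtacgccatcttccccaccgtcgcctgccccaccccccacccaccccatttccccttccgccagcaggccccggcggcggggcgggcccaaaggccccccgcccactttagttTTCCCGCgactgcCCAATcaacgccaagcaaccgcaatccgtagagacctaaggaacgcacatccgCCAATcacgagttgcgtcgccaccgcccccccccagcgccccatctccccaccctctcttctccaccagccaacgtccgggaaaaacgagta
NSL1: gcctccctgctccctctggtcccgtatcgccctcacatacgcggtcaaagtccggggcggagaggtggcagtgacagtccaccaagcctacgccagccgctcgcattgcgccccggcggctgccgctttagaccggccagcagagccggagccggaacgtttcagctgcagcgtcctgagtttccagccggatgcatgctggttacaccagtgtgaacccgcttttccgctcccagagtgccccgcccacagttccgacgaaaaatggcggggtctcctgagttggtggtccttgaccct
MIS12 held CCAAT boxes and an E2F match but no CHR, and NSL1 held none of the 3 motifs. The windows of the outer kinetochore genes CENPE and DSN1, whose groups did not overlap, also held none. ZW10, an outer kinetochore gene whose groups also overlapped, is not shown. Its window held all 3 motifs, with a CHR that begins 224 bases before the start.

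**Figure D3:**
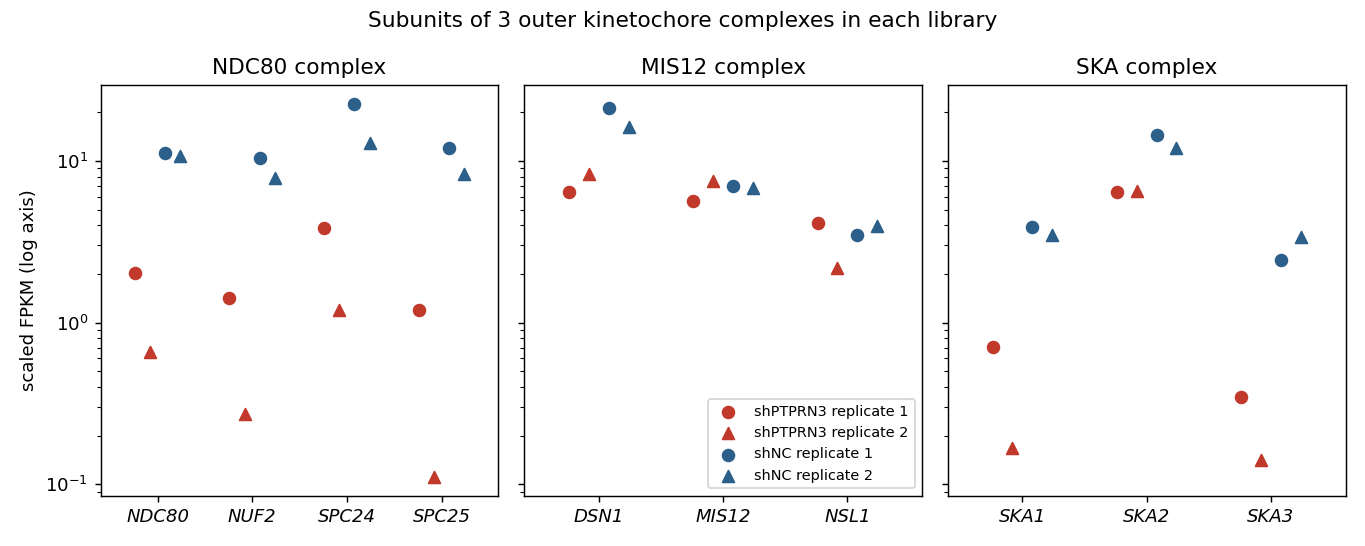
Points are scaled FPKM of single libraries on a log axis, shPTPRN3 in red and shNC in blue, for the members that belong to 3 complexes. The groups are apart for all NDC80 complex and SKA genes and for DSN1, and overlap for MIS12 and NSL1.

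KNL1, the large scaffold on which checkpoint kinases dock, had 0.531 and 0.166 FPKM in shPTPRN3 and 1.65 and 3.57 FPKM in shNC. Its binding partner ZWINT, the most abundant member in the control cells, had 8.004 and 2.86 FPKM in shPTPRN3 and 36.7 and 27.1 FPKM in shNC. Relative to control these are 13.3% and 17.0%, with no overlap between groups. The log2 fold changes were -1.38 for KNL1 (adjusted p = 0.173 by limma) and -2.47 for ZWINT (adjusted p = 0.0785 by limma), where the low level of KNL1 makes its value an understatement on the FPKM + 1 scale. ZWINT, but not KNL1, was called lower in the fit without genes listed at 0.

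The RZZ complex brings dynein and checkpoint proteins to unattached kinetochores. Its subunit ZWILCH had 3.52 and 4.52 FPKM in shPTPRN3 and 8.65 and 11.8 FPKM in shNC, or 39.3% of control (log2 fold change -1.16, adjusted p = 0.191 by limma). ZW10, which also acts in membrane traffic between interphase compartments, had 2.30 and 3.98 FPKM in shPTPRN3 and 2.997 and 3.85 FPKM in shNC. The ZW10 groups overlapped (log2 fold change -0.12, SE 0.34, adjusted p = 0.922 by limma). KNTC1, the third subunit and no member, had a log2 fold change of -0.75 (adjusted p = 0.334 by limma).

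Of the SKA complex, which tracks the ends of microtubules with NDC80, SKA1 and SKA3 were further below control than SKA2. SKA1 had 0.702 and 0.166 FPKM in shPTPRN3 and 3.90 and 3.50 FPKM in shNC. SKA3 had 0.347 and 0.142 FPKM in shPTPRN3 and 2.44 and 3.37 FPKM in shNC. SKA2 had 6.43 and 6.54 FPKM in shPTPRN3 and 14.5 and 12.0 FPKM in shNC. The level relative to control was 11.7% for SKA1, 8.41% for SKA3 and 49.1% for SKA2. SKA1 and SKA3 were called lower in the fit without genes listed at 0, with adjusted p of 0.0780 and 0.0778 before (limma), and SKA2 was called in neither (log2 fold change -0.92, adjusted p = 0.261 by limma). Both SKA1 and SKA3 had reached the minimum mean only through shNC. SKA1, like SPC25, is the sum of a chromosome row and an alternate-sequence row, here with identical values. Whether such a sum rejoins divided fragments or counts them again was not tested, and for SKA1 the percentage of control is the same either way. Without the alternate sequences SKA1 had a log2 fold change of -1.24, since the added 1 weighs more on a lower level.

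CENPF, a coiled-coil protein of the outer corona, and CENPE, a kinesin that carries chromosomes towards the spindle equator, have some of the longest mRNAs of the group. CENPF had 2.64 and 2.12 FPKM in shPTPRN3 and 9.89 and 27.9 FPKM in shNC. CENPE had 0.481 and 0.381 FPKM in shPTPRN3 and 1.45 and 3.40 FPKM in shNC. Both shPTPRN3 values were low and close together, while the control libraries differed by more than 2-fold from each other. The log2 fold changes were -2.40 for CENPF (SE 0.48, adjusted p = 0.0927 by limma) and -1.20 for CENPE (adjusted p = 0.216 by limma). CENPF was called lower in the fit without genes listed at 0.

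The shugoshins protect cohesin at centromeres until anaphase, SGO1 in mitosis and SGO2 mainly in meiosis as studied in mice. SGO1 had 0.909 and 0.344 FPKM in shPTPRN3 and 4.54 and 4.91 FPKM in shNC. SGO2 had 1.23 FPKM in each shPTPRN3 library and 3.19 and 5.98 FPKM in shNC. Neither gene's groups overlapped, at 13.3% of control for SGO1 and 26.8% for SGO2. The log2 fold change was -1.84 for SGO1 (adjusted p = 0.0700 by limma), which was called lower in the fit without genes listed at 0, and -1.28 for SGO2 (adjusted p = 0.184 by limma), which was not. SGO1 had reached the minimum mean only through shNC.

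Set side by side, the constitutive centromere and the outer kinetochore gave nearly the same median. The 16 outer kinetochore members had a median log2 fold change of -1.51, from -2.81 to -0.07, and the 11 constitutive members never listed at 0 a median of -1.62, from -2.33 to 0.63. With CENPO and CENPP, listed at 0 in shPTPRN3, the constitutive median was also -1.62. The outer median was higher by 0.11, while between the replicates 1 the difference was 0.11 and between the replicates 2 it was -0.10, far less than the spread inside either class. The sums of FPKM were 49.7 and 41.1 in shPTPRN3 against 170 and 163 in shNC for the outer members, or 27.2% of control. For the 13 constitutive members tested, CENPO and CENPP included, they were 50.5 and 32.3 against 157 and 96.1, or 32.7%. Without CENPO and CENPP the shNC sums were 144 and 86.8, which gives 35.8%. On TPM the order turned, with medians of -2.18 for the outer and -1.87 for the constitutive members, CENPO, CENPP and CENPC included. A pseudocount of 0.1 gave -2.66 and -2.13, with CENPO and CENPP included. No order between the classes can be read from these 4 libraries. At the unadjusted threshold 13 of 16 outer and 11 of 13 constitutive members, CENPO and CENPP included, were lower, against 7.77% of all genes. In the fit without genes listed at 0, 8 of 16 and 4 of 11 were called lower, against 1.57%. All of these counts include members that reached the minimum mean only through shNC.

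RefSeq windows were matched for 30 of the 35 genes, all but CENPH, CENPL, CENPM, KNL1 and MIS18A. A CHR was present in 16 of 30 windows (53.3%), against 11.1% of the 8963 windows of genes tested. It was found in 8 of 15 outer kinetochore and 5 of 11 constitutive windows. CCAAT boxes were present in 19 of 30 (63.3%), against 36.9%, and E2F matches in 9 of 30 (30%), against 15.3%. The E2F letters TTGGCGC can share bases with a CCAAT box read on the other strand. A CHR within 50 bases of the start, a limit set after the positions had been seen, was present in 13 of 30 (43.3%), against 3.25%. Among members never listed at 0, this was so for 6 of the 9 with a log2 fold change below -2, 5 of the 12 from -2 to below -1 and 0 of the 5 at -1 or above, which are CENPT, MIS12, NSL1, SKA2 and ZW10. A CHR anywhere in the window was present in 7 of the 9, 5 of the 12 and 1 of the 5, the last being ZW10. These bins use the FPKM + 1 scale, which understates changes at low levels. SKA3, at 8.41% of control, is among the 12, while CENPU, at 14.9%, is among the 9. CENPL (-0.56) and MIS18A (-0.70) had no window, and CENPC, which was not tested, had a CHR 90 bases before the start. These counts describe letters in windows and show no binding.

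Other genes of centromere and kinetochore, listed by name and none of them a member, gave 33 tested of 34, with a median log2 fold change of -0.84 and 30 negative values. Of these limma called 1 lower, CDCA8, a subunit of the chromosomal passenger complex, against 0.342% of all genes. CDCA8 had 1.37 and 0.395 FPKM in shPTPRN3 and 15.7 and 11.2 FPKM in shNC, with a log2 fold change of -2.97 (adjusted p = 0.0362 by limma). That call was lost with no filter, at a mean of at least 5 FPKM, without a trend, at a pseudocount of 0.1, on TPM and on unscaled FPKM, each of which called 0 of these genes, and also without shNC replicate 1 (adjusted p = 0.111) or shNC replicate 2 (adjusted p = 0.118). At an unadjusted p under 0.05, 19 of 33 were lower and 0 higher, against 7.77% and 5.67% of all genes. In the fit without genes listed at 0, 11 were called lower, against 1.57%, and 0 higher, against 0.378%, among them the checkpoint genes BUB1, BUB1B, MAD2L1 and TTK, named after their values were seen. Both the 19 and the 11 include CDCA8, MAD2L1 and TTK, which reached the minimum mean only through shNC. CENPB, which binds centromeric satellite DNA (log2 fold change -0.14, adjusted p = 0.899 by limma) and the checkpoint adaptor BUB3 (-0.08, adjusted p = 0.953 by limma), also named after their values were seen, were near 0. MKI67, the proliferation antigen, had 1.90 and 0.566 FPKM in shPTPRN3 and 15.6 and 34.3 FPKM in shNC, with a log2 fold change of -3.51 (adjusted p = 0.0467 by limma). Of 8 genes of dividing cells (MKI67, TOP2A, CDK1, CCNB1, CCNA2, MCM2, MCM5 and PCNA), all 8 had both shPTPRN3 values below both shNC values, against 23.1% of all genes, with sums of 69.7 and 41.1 FPKM in shPTPRN3 and 289 and 247 FPKM in shNC. Limma called 2 of them lower, MKI67 and CDK1, against 0.342% of all genes. Their part in the result was not tested.

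The control libraries differed from each other along transcript length. Across the 32 members never listed at 0, the log2 ratio of shNC replicate 1 over shNC replicate 2 correlated with the log2 length of the longest annotated transcript at r = -0.84 (Spearman's rho -0.76), a description across genes that share both libraries. It had a median of 0.53 for the 11 members under 2000 bases and -1.11 for the 5 of at least 4000 bases. In shPTPRN3 the corresponding correlation was -0.39 (rho -0.40), and over 10764 genes it was -0.35 in shPTPRN3 and -0.61 in shNC. The fold changes between groups were less related to length (r = 0.14, rho 0.29, 31 members). With the length trend of each library removed, 6 members were called lower, CENPA, CENPO, HJURP, NDC80, NUF2 and SPC25, against 0.571% of all genes (limma, adjusted p under 0.05). Of these, CENPO, NUF2 and SPC25 had reached the minimum mean only through shNC, and CENPO was listed at 0 in both shPTPRN3 libraries.

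**Figure D4:**
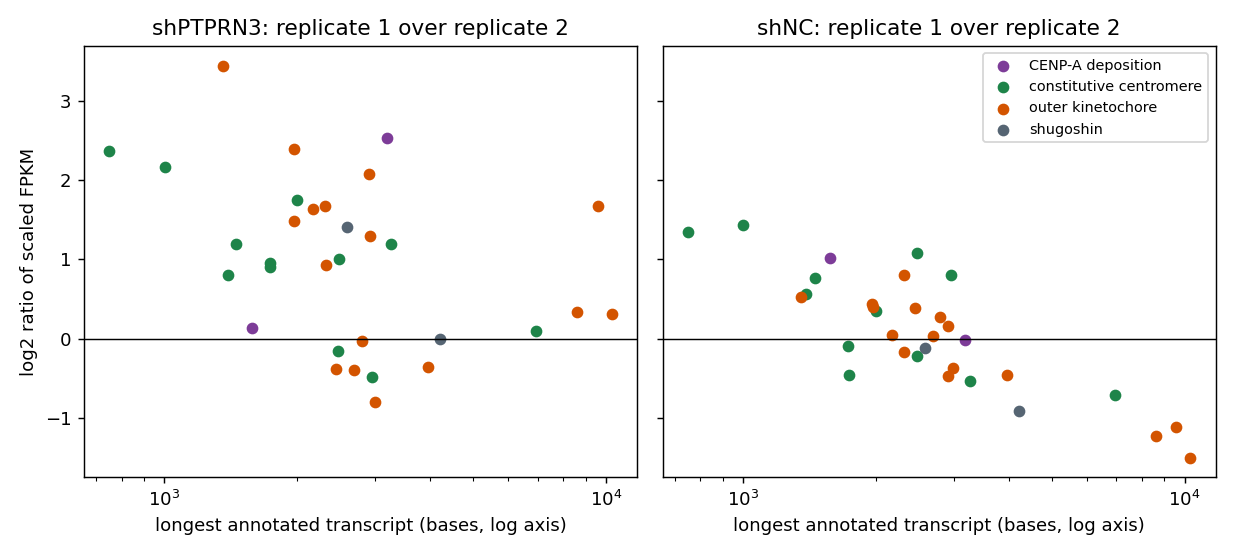
Each point is 1 member, coloured by class, with transcript length on the x axis (log) and the log2 ratio of replicate 1 over replicate 2 on the y axis, for shPTPRN3 on the left and shNC on the right. In shNC the ratio falls with length, and the 5 members of at least 4000 bases all lie below 0.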

How the data were processed

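Libraries of U87 cells, 2 with shPTPRN3 and 2 with shNC, came from a KAPA stranded mRNA kit, per the labels' protocols. The submitters' processing notes name the tools Cufflinks 2.2.1.2, STAR 2.6.0b-1 and FastQC 0.72 and the build hg38. Neither annotation nor strand setting is stated there, so reads of overlapping genes may have been mixed. The deposited values are FPKM with an interval and a status for each gene row, per the file headers.

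Of 33646 rows, 651 had a status that was not OK somewhere and were dropped, with no member among them. FPKM were summed by symbol and divided by median-ratio factors (1.05 and 0.943 for shPTPRN3, 1.04 and 0.974 for shNC, from 9988 genes). Limma 3.58.1 (R 4.3.3, trended eBayes, two-sided) was run on log2(scaled FPKM + 1) of genes averaging at least 1 FPKM, with Benjamini-Hochberg adjustment over all of them and a threshold of 0.05. An exact permutation test of 2 against 2 libraries cannot go below p = 0.333 and was not used. The fit was tested on simulated data. Depth and implied fragments were derived from the widths of the deposited intervals and cover counting error only. Transcript lengths are from GENCODE 29.

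The members and lists were chosen with earlier results of these data known. All members were to be named, and of the other centromere and kinetochore genes those called. Alternatives covered scaling, pseudocount, filters, row status, genes listed at 0, eBayes settings, the replicate number as a block and the loss of each library. Leaving out alternate sequences and removing length trends were chosen after seeing the data.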

Additional observations from a re-analysis of the deposited data

How the results depend on the processing

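The members called lower by limma, 1 in the fit reported, numbered 0 with no filter and at a mean of at least 5 FPKM, 14 without genes listed at 0, 11 with robust eBayes, 2 without alternate sequences, 6 with length trends removed and 2 to 12 when 1 library was left out (12 without shPTPRN3 replicate 1). Members lower at an unadjusted p under 0.05 numbered 25 of 35 with no filter, against 5.37% of all genes, and 14 of 17 tested at 5 FPKM, against 6.81%. Except with no filter, the members counted here include some that reached the minimum mean, 1 or 5 FPKM, only through shNC. The genes called over the whole table, 48 in all, numbered 31 on FPKM as deposited, 23 with a pseudocount of 0.1, 0 with no filter, 8 at 5 FPKM, 217 without genes listed at 0, 160 with robust eBayes, 26 without a trend, 90 with length trends removed and 60 to 197 without 1 library. The other centromere and kinetochore genes called lower, 1 in the fit reported, numbered 0 with no filter, at 5 FPKM, without a trend, on TPM, at a pseudocount of 0.1 and on unscaled FPKM. They numbered 11 without genes listed at 0, 9 with robust eBayes and 3 with length trends removed. The constitutive median was -1.87 on TPM, -2.13 with a pseudocount of 0.1 and -1.96 to -1.27 without 1 library. The outer median was -2.18 on TPM, -2.66 with a pseudocount of 0.1 and -2.40 at 5 FPKM, where fewer genes were tested. Changed signs were found for MIS12 on TPM (0.013) and without shPTPRN3 replicate 1, for ZW10 without shPTPRN3 replicate 1 or shNC replicate 2, and for NSL1 without shPTPRN3 replicate 2, none of them called. Without 1 library, MIS12 ran from -0.22 to 0.10, ZW10 from -0.41 to 0.18 and NSL1 from -0.57 to 0.14. PTPRN kept its direction in every fit run and passed the threshold without genes listed at 0 (-2.22, adjusted p = 0.0269), with robust eBayes (-2.22, adjusted p = 0.0362) and when shPTPRN3 replicate 1 was dropped (-2.40, with 0.0408 as the adjusted p), and its value ran from -2.45 to -1.98 without 1 library. The cause of these changes was not tested.

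Libraries share only a replicate number. Deviations from the group means correlated with r = 0.52 between libraries of the same number, across 11390 genes. With the replicate number as a block, limma called 28 of 34 members and 18 of the 33 other centromere and kinetochore genes lower. Of all genes 10.6% were called lower (1208 lower and 955 higher, 2163 in all). The 28 include all 11 members that reached the minimum mean only through shNC, among them CENPO, CENPP and OIP5, listed at 0 in both shPTPRN3 libraries. PTPRN passed in that fit (-2.22, adjusted p = 9.2e-07 by limma). The block leaves fewer residual degrees of freedom than the 2 of the fit reported, so these p-values lean more on variances pooled across genes. With 2 libraries a group, 4.10 to 69.5 implied fragments behind low values such as SGO1 and SGO2 in shPTPRN3 replicate 2 limit what can be told of their level there.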
